A study of Mus musculus with 12 samples.

Results

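The natriuretic peptide system was followed through the loss of Med30 in mouse heart as a set of 8 genes chosen by name, of 20775 genes in each deposited table. The set holds the peptide genes Nppa, Nppb and Nppc, the processing protease genes Corin and Furin, and the receptor genes Npr1, Npr2 and Npr3. All 8 were found in both tables, and 7 of 8 at E10.5 and 5 of 8 at 4 weeks had a mean above 1 RPKM over the 6 samples of the table, the level required for a test. RPKM is the number of reads scaled by the length of the gene and the size of the library, so levels of different genes are compared here per length.

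MED30 is a subunit of Mediator, the complex that links transcription factors to RNA polymerase II, and the study removed it from cardiomyocytes of the embryo and of the adult. RNA was sequenced from 12 C57BL/6 samples in 4 groups of 3. The E10.5 cKO hearts carried Med30 f/f and Tnnt-Cre, which is active in developing cardiomyocytes, and the E10.5 Ctrl hearts came from Cre-negative Med30 f/f littermates. The 4 weeks icKO samples were cardiomyocytes of Med30 f/f mice with the tamoxifen-inducible, cardiomyocyte-specific αMHC-MerCreMer, and the 4 weeks Ctrl samples were those of Cre-negative Med30 f/f mice, all taken 4 weeks after tamoxifen at 3 months of age. The labels call both control groups wild type and name the tissue of all 12 samples as heart. As neither control group had a Cre, the action of Cre and the loss of Med30 cannot be told apart in these RNA data. In the paper, tamoxifen caused neither deaths nor a loss of heart function in αMHC-MerCreMer mice without a floxed allele. RNA of such mice was not among the 12 samples. E10.5 hearts also hold cells that Tnnt-Cre does not reach. The stages differ in Cre driver, in whole hearts against isolated cardiomyocytes and in time since deletion. A difference between stages cannot be told apart from these. Nothing in the labels says that the 3 samples of a group came from separate animals or pools, so the p-values measure the spread between these samples.

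The atrial (A-type) and B-type natriuretic peptides are made as precursors by heart muscle cells, cut by proteases and released into the blood, where they lower blood pressure and volume. Corin, a protease in the cardiomyocyte membrane, cuts the precursor of atrial natriuretic peptide, the product of Nppa, and furin, a protease of the secretory pathway with many substrates, can cut that of B-type natriuretic peptide, the product of Nppb. The receptors encoded by Npr1 (for the A and B types) and Npr2 (for the C type, the product of Nppc) make cyclic GMP, and the receptor encoded by Npr3 removes the peptides. Nppa is known as a gene of atria and of the embryonic ventricle that is low in the healthy adult ventricle and returns in the diseased one.

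Nppa and Nppb lie side by side on chromosome 4 in the same orientation, with 14934 bases between their starts. In GRCm38 with the GENCODE M21 annotation, Nppa spans chr4:148000722-148002079 and Nppb spans chr4:147985788-147987205, both on the plus strand. Their upstream sequences are shown because the pair shares a locus and a family of cardiac regulators while Nppa alone of the pair was called in the adult knockout, and that of Corin because it was the member that fell there. The sequences are from RefSeq on GRCm38.p6, on the strand of the gene. Capitals mark letters searched on both strands, which were the core of a GATA factor site (GATAA), the core of an NKX2-5 site (AAGTG), the core of a TEAD site (CATTCC) and a TATA box (TATAAA). For Nppa the 250 bases chr4:148000472-148000721, just upstream of the annotated start, held 2 GATAA, 2 AAGTG and 1 TATAAA. For Nppb the 250-base window also held 2 GATAA, with 1 CATTCC and 1 TATAAA, and only the 30 bases chr4:147985801-147985830 around the GATAA pair are printed, because GENCODE starts the gene within this window and all 4 matches fall in its exon 1. For Corin the 250 bases chr5:72504541-72504790 (minus strand) held none of the 4 words.
Nppa: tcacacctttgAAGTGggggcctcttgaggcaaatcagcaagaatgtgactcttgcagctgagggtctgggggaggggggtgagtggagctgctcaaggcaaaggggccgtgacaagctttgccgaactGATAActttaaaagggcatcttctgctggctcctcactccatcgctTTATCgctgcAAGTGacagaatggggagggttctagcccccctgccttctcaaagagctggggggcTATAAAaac
Nppb: cagctGATAAatcagaGATAAccccacccc
Corin: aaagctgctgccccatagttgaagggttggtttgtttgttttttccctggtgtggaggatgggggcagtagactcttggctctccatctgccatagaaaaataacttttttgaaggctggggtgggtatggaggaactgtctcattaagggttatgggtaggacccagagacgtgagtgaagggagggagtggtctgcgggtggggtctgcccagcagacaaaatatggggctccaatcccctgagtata

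Over 32851 RefSeq promoter windows of 250 bases, 22.6% held GATAA, 40.7% held AAGTG, 12.6% held CATTCC and 12.4% held TATAAA. Of the other members, the window of Furin at its most upstream start held 4 AAGTG and 1 TATAAA, that of Nppc held 1 TATAAA, and those of Npr1, Npr2 and Npr3 held none. A match is a run of letters and not a bound site.

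The targeted gene was lower in all 6 knockout samples. Med30 was at 10.6, 13.3 and 11.3 RPKM in the E10.5 Ctrl samples and at 1.38, 2.02 and 1.004 RPKM in the E10.5 cKO samples. At 4 weeks it was at 7.66, 7.45 and 7.66 RPKM in Ctrl and at 3.81, 3.16 and 1.83 RPKM in icKO samples. The libraries held an estimated 11.94 to 20.02 M reads. At 4 weeks the 20 most abundant genes took 24.8% to 25.4% of the summed RPKM in Ctrl and 11.5% to 13.1% in icKO samples, and the log2 change of the median gene was 0.57, against -0.13 at E10.5. Scaling each sample to the median ratio of its genes set these medians to 0.01 and -0.01, and each change given here is therefore read against them. Cardiomyocyte markers were present in every sample, and the summed RPKM of the 7 markers was lower in both knockouts without overlap. It was 3910 to 5070 in E10.5 Ctrl and 3171 to 3757 in E10.5 cKO hearts. At 4 weeks it was 17257 to 18537 in Ctrl and 7015 to 8353 in icKO samples. At E10.5, 0 of 7 were called, with a median log2 change of -0.32, or 0.22 with quantile normalization. Myh6 overlapped there, at 337, 300 and 268 RPKM in Ctrl and 250, 281 and 331 RPKM in cKO hearts. The mean of Actc1 alone, another of the 7, went from 2787 to 1975 RPKM at E10.5. At 4 weeks 0 of 7 were called higher and 4 lower. These counts were 0 and 6 with median-ratio scaling, and 1 and 3 with quantile normalization. The part of the lower cardiomyocyte sum in the lower Nppa of the embryo and the lower Corin of the adult was not tested.

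Nppa was the member that rose most in the adult knockout. It was at 102.1, 130 and 176 RPKM in the 4 weeks Ctrl samples and at 688, 1177 and 1005 RPKM in the icKO samples. The lowest icKO sample was above the highest Ctrl sample, and the mean went from 136 ± 37.3 to 957 ± 248 RPKM (SD, n = 3 each), a 7.03-fold difference. The rank of Nppa among 20775 genes moved from 228 to 13, and its share of the summed RPKM from 0.0601% to 0.417%. On the log2(RPKM + 0.1) scale the difference was 2.81 (SE 0.23, limma adjusted p = 5.29e-06), and with median-ratio scaling it was 2.25 (adjusted p = 4.86e-05). GENCODE lists the gene Gm13054 across Nppa on the other strand. Whether counting used strand is not given in the sources used here, so reads of this pair cannot be told apart. The same limit holds for Npr1, Npr2, Npr3 and Furin, each with a listed gene on the other strand. Corin has listed genes across it on both strands.

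In the embryo Nppa did not pass the test. It was at 560, 428 and 515 RPKM in Ctrl and at 338, 391 and 369 RPKM in cKO hearts, ranking 16 and 21 among all genes. Every cKO value was below every Ctrl value. The difference was -0.45 on the log2 scale (95% interval -0.84 to -0.05, limma adjusted p = 0.165), and -0.32 with median-ratio scaling (adjusted p = 0.145). The difference between the adult and the embryonic effect was itself tested in a single fit of all 12 samples, and for Nppa it was 3.26 (SE 0.30, adjusted p = 1.11e-06), or 2.57 with median-ratio scaling (adjusted p = 1.24e-05). In that fit 68.7% of 8909 genes passed, and 52.9% with median-ratio scaling.

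Nppb, the neighbour and close relative of Nppa, did not pass the test at either stage. The paper itself reports a significant increase of both Nppa and Nppb RNA by quantitative PCR in icKO hearts at 4 weeks. That was another method, on hearts and not on isolated cardiomyocytes. At 4 weeks it was at 68.7, 159 and 167 RPKM in Ctrl and at 141, 231 and 174 RPKM in icKO samples. The groups overlapped, and Ctrl 1 stood below the other samples. The log2 difference was 0.55 (95% interval -0.18 to 1.27, limma adjusted p = 0.145), close to the 0.57 of the median gene. It was -0.02 with median-ratio scaling and 0.13 without Ctrl 1. At E10.5 Nppb was at 91.5, 59.7 and 63.8 RPKM in Ctrl and at 60.4, 76.6 and 61.0 RPKM in cKO hearts. The difference was -0.10 (95% interval -0.50 to 0.29, adjusted p = 0.765), and the other scalings turned it to between 0.02 and 0.10.

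The ratio of Nppb to Nppa within a sample does not depend on how samples are scaled. It was 0.673, 1.22 and 0.952 in the 4 weeks Ctrl samples and 0.205, 0.196 and 0.173 in the icKO samples. The adult controls thus held about equal levels of both transcripts per length, and in every icKO sample Nppb was well below Nppa. The mean ratio was 4.82-fold lower in icKO, with groups that did not overlap (two-sided exact permutation p = 0.1, the smallest that 3 against 3 samples can give). At E10.5 the ratio was 0.163, 0.140 and 0.124 in Ctrl and 0.178, 0.196 and 0.166 in cKO hearts (exact p = 0.1), so the adult icKO values were near those of the embryo.

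Nppc, whose product acts mainly through Npr2, was at or near nothing. At E10.5 it was listed at 0 in 5 of 6 samples and at 0.273 RPKM, about 5 reads, in cKO 1. At 4 weeks its highest value was 0.170 RPKM, about 3 reads, in icKO 1. No difference was detectable at this depth. A count of 0 allows up to 0.144 to 0.210 RPKM of Nppc in an E10.5 library, taking 3 reads as the limit.

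**Figure D1:**
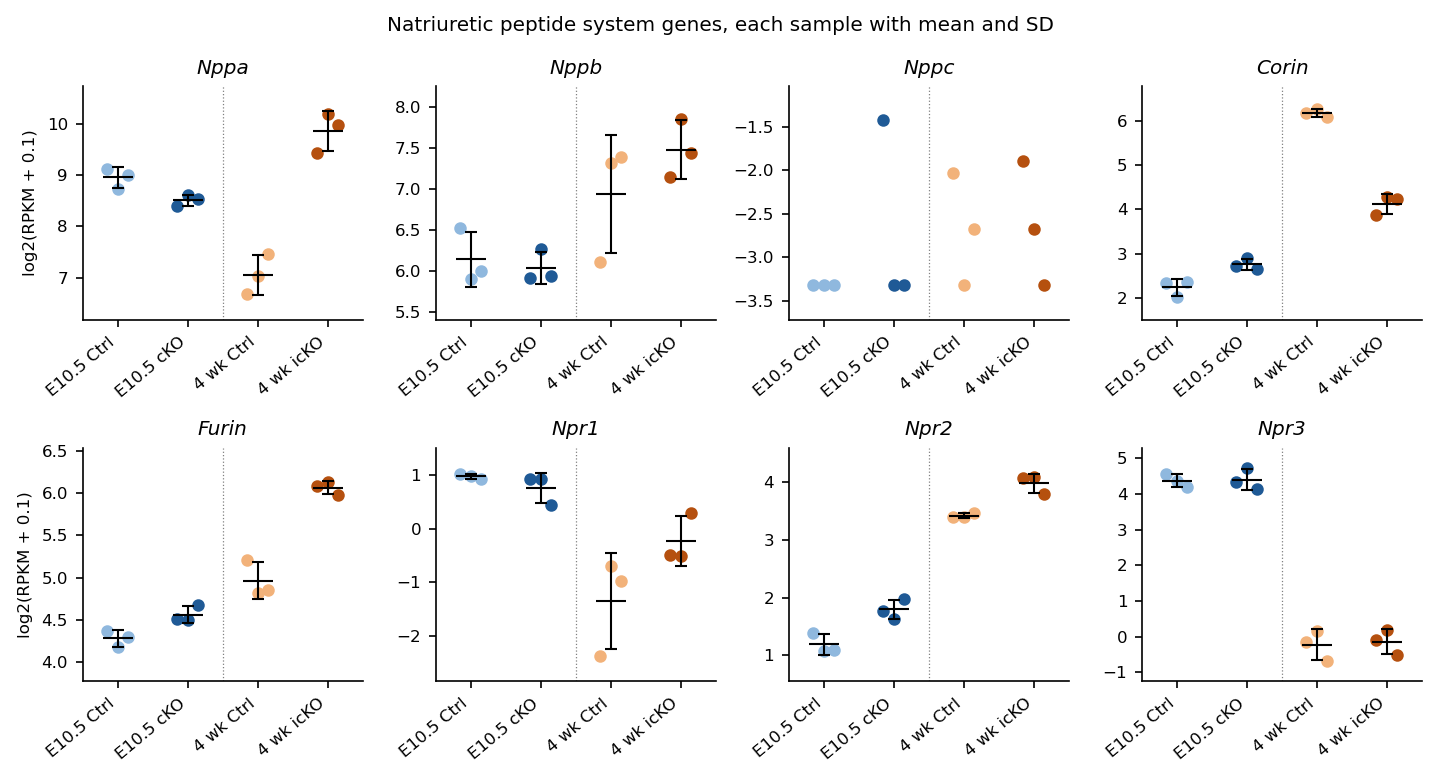
The 8 genes in all 12 samples, as log2(RPKM + 0.1), by group. Points are samples, bars are the mean and SD (none for Nppc, which is listed at 0 in 7 samples), and the dotted line parts the tables, which were normalized separately. At 4 weeks the icKO points of Nppa lie above and those of Corin below all Ctrl points, while those of Nppb overlap.

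Corin, the protease gene for the Nppa product, fell in the adult knockout while Nppa rose. It was at 73.0, 77.8 and 68.3 RPKM in 4 weeks Ctrl and at 14.5, 19.4 and 18.8 RPKM in icKO samples. All icKO values were far below all Ctrl values, with means of 73.0 ± 4.78 and 17.5 ± 2.70 RPKM (SD, n = 3 each), a 4.16-fold difference. The log2 difference was -2.06 (SE 0.12, limma adjusted p = 9.21e-07), or -2.62 with median-ratio scaling. In the adult controls Corin was the third most abundant member per length, overlapping Nppb, and in the icKO samples it overlapped Npr2.

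In the embryo Corin was at 4.97, 3.94 and 5.01 RPKM in Ctrl and at 6.43, 7.37 and 6.17 RPKM in cKO hearts. The cKO values were the higher ones without overlap, the direction opposite to that in the adult. The log2 difference was 0.52 (95% interval 0.19 to 0.84, limma adjusted p = 0.0704), and it passed with median-ratio scaling, at 0.64 (adjusted p = 0.0334). The adult effect minus the embryonic effect was -2.58 (SE 0.19, adjusted p = 2.06e-07), the change furthest below 0 among the members tested.

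Furin was higher in the adult knockout. It was at 37.0, 28.1 and 28.9 RPKM in Ctrl and at 67.7, 69.9 and 62.9 RPKM in icKO samples, a 2.13-fold difference of the means. The groups did not overlap, and the log2 difference was 1.10 (SE 0.11, limma adjusted p = 2.10e-05). With median-ratio scaling it was 0.54 (adjusted p = 0.00219), higher but no longer past a log2 change of 1. At E10.5 Furin was at 20.6, 17.9 and 19.5 RPKM in Ctrl and at 22.6, 22.5 and 25.5 RPKM in cKO hearts. Again the groups did not overlap. The difference was 0.28 (95% interval 0.03 to 0.53, adjusted p = 0.162), and 0.40 with median-ratio scaling (adjusted p = 0.0261). The difference between stages of 0.82 (adjusted p = 0.000510) was 0.13 with median-ratio scaling (adjusted p = 0.431).

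The ratio of Corin to Furin turned over in the adult knockout. It was 1.97, 2.77 and 2.36 in 4 weeks Ctrl and 0.213, 0.277 and 0.299 in icKO samples. Corin was thus above Furin in every adult control and below it in every icKO sample, a 9.001-fold lower mean ratio (two-sided exact permutation p = 0.1, the smallest possible). In the embryo Corin was below Furin in both groups, at 0.241, 0.220 and 0.257 in Ctrl and 0.285, 0.327 and 0.242 in cKO hearts, and these overlapped (exact p = 0.2).

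**Figure D2:**
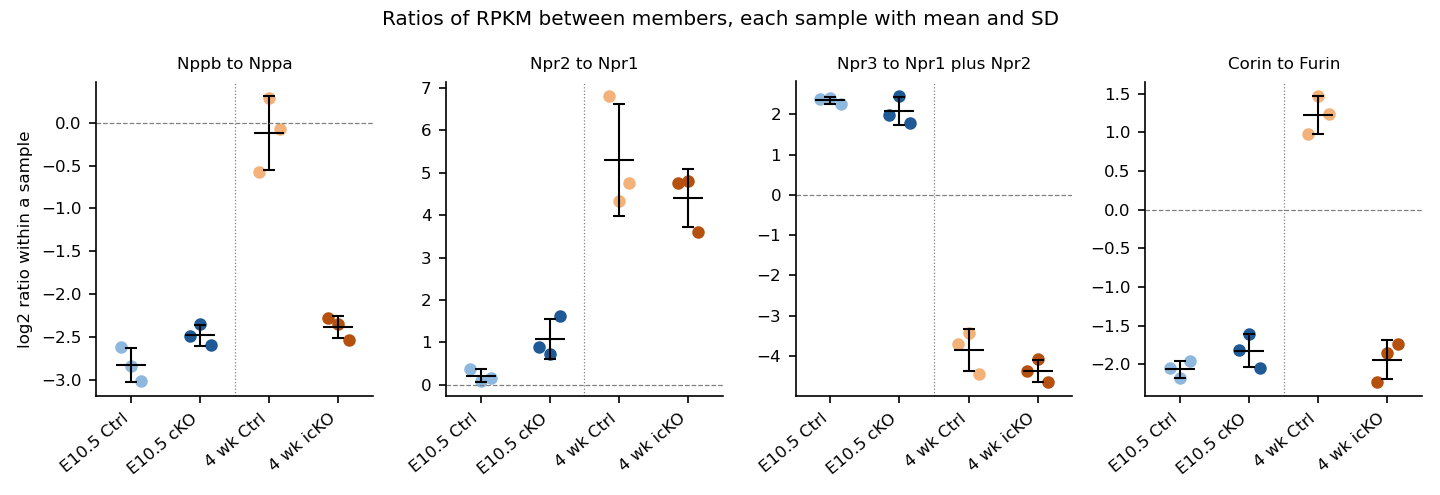
Ratios between members within each sample, on a log2 scale. Points are samples and bars the mean and SD of 3, and the dashed line marks equal levels per length. Nppb to Nppa and Corin to Furin are near or above 1 only in the 4 weeks Ctrl samples, and the icKO samples lie near the embryonic ones.

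Of the receptors, Npr2 was the main cyclase receptor of the adult cells. It was at 10.49, 10.44 and 11.04 RPKM in 4 weeks Ctrl and at 16.72, 16.94 and 13.8 RPKM in icKO samples. The icKO values were all above the Ctrl values, with a log2 difference of 0.56 (SE 0.10, limma adjusted p = 0.000765). This equals the shift of the median gene, and with median-ratio scaling the difference was -0.00 (95% interval -0.20 to 0.20, adjusted p = 0.997). At E10.5 Npr2 was at 2.53, 2.01 and 2.03 RPKM in Ctrl and at 3.32, 3.01 and 3.84 RPKM in cKO hearts. Here the groups did not overlap either, with a difference of 0.61 (95% interval 0.21 to 1.004, adjusted p = 0.0807), and 0.73 with median-ratio scaling (adjusted p = 0.0348).

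Npr1, the receptor gene for the Nppa and Nppb products, was low throughout. At E10.5 it was at 1.94, 1.87 and 1.80 RPKM in Ctrl and at 1.80, 1.80 and 1.25 RPKM in cKO hearts, a difference of -0.22 (95% interval -0.71 to 0.28, limma adjusted p = 0.587). At 4 weeks it was under the level for a test, at 0.093, 0.518 and 0.406 RPKM in Ctrl and at 0.612, 0.603 and 1.13 RPKM in icKO samples. The icKO values were the higher ones, but they rested on about 41 to 55 reads and the Ctrl values on about 5 to 37. Fitted without the filter, the difference was 1.117 (95% interval -0.34 to 2.57, adjusted p = 0.202). The ratio of Npr2 to Npr1 went from 1.30, 1.07 and 1.13 in E10.5 Ctrl to 1.85, 1.67 and 3.06 in E10.5 cKO hearts without overlap (exact permutation p = 0.1). At 4 weeks it was 113, 20.2 and 27.2 in Ctrl and 27.3, 28.1 and 12.2 in icKO samples, which overlapped (exact p = 0.6), and the value of 113 has about 5 reads of Npr1 under it.

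Npr3, the clearance receptor gene, showed no detectable difference with and without Med30. At E10.5 it was at 23.3, 20.5 and 18.2 RPKM in Ctrl and at 20.03, 26.4 and 17.6 RPKM in cKO hearts. The groups overlapped, with a log2 difference of 0.03 (95% interval -0.33 to 0.39, limma adjusted p = 0.925). At 4 weeks it was at 0.806, 1.01 and 0.526 RPKM in Ctrl and at 0.834, 1.03 and 0.601 RPKM in icKO samples, under the level for a test. Npr3 was above the sum of the cyclase receptors in all 6 embryonic hearts, by 3.46 to 5.50 times, and at most 0.0925 of that sum in the 6 adult samples. Within a stage this ratio overlapped between knockout and control (exact permutation p = 0.4 at E10.5 and 0.3 at 4 weeks).

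Counted over the members tested, 0 of 7 passed at E10.5 with an adjusted p under 0.05 and a log2 change beyond 1, the rule for a called gene, where 0.781% of all 10885 genes did. At an unadjusted p under 0.05 the count was 4 of 7 (Nppa, Npr2, Corin and Furin) in limma, the sole tool run, against 23.6% of all genes. The groups of the same 4 did not overlap, as was so for 29.1% of all genes tested. With median-ratio scaling 3 of 7 (Npr2, Corin and Furin) had an adjusted p under 0.05, against 5.05% of all genes. At 4 weeks, 2 of 5 were called higher (Nppa and Furin), where 28.0% of 9517 genes were, and 1 of 5 called lower (Corin), where 8.45% were. With Npr2, 4 of 5 had an adjusted p under 0.05 at any size, against 78.7% of all genes, and the groups of 4 of 5 did not overlap, against 80.8%. In the adult cells the members thus passed the test about as often as other genes. Median-ratio scaling left 1 of 5 called higher (Nppa, background 11.1%) and 1 of 5 called lower (Corin, background 15.9%).

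**Figure D3:**
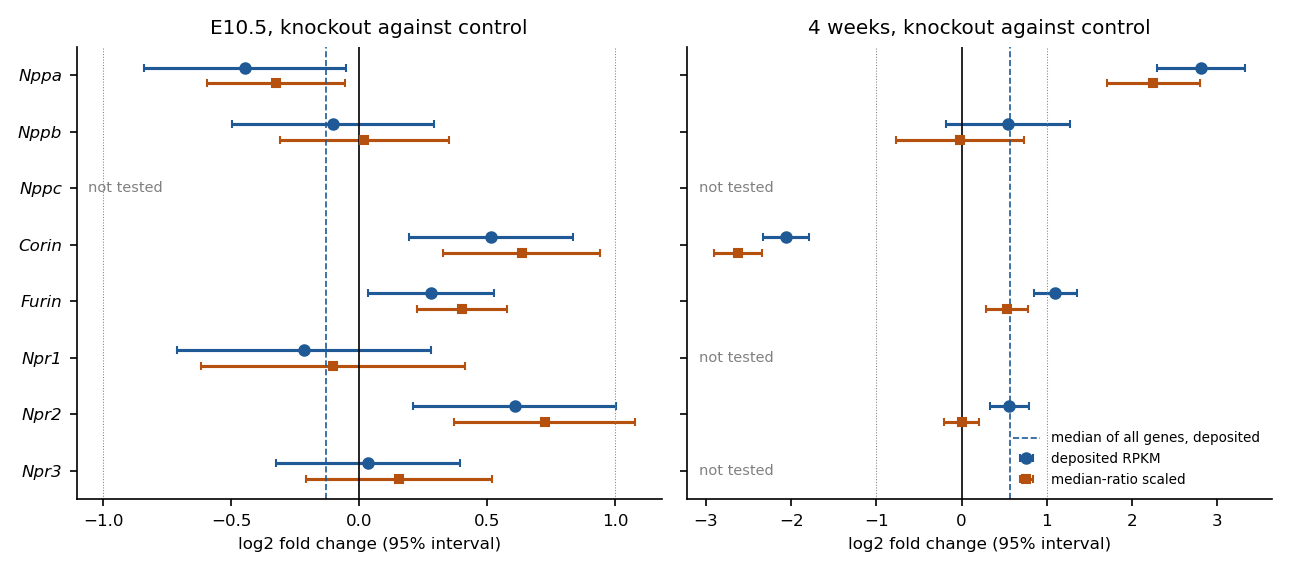
Log2 fold change of each member, knockout against control, with its 95% interval, from the deposited RPKM (circles) and after median-ratio scaling (squares). Dotted lines mark a log2 change of 1 in either direction and the dashed line the median of all genes. At 4 weeks Nppa at 2.81 and Corin at -2.06 stand far from the dashed line at 0.57, on which Nppb and Npr2 lie.

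By level per length, the order in E10.5 Ctrl hearts was Nppa, Nppb, Npr3, Furin, Corin, Npr2, Npr1 and Nppc, and the sole neighbours in this order whose samples overlapped were Npr3 and Furin. In E10.5 cKO hearts Furin and Npr3 changed places and overlapped again. In 4 weeks Ctrl samples Nppa, Nppb and Corin led, Nppa overlapping Nppb and Nppb overlapping Corin, followed by Furin, Npr2, Npr3, Npr1 and Nppc, of which Npr1 overlapped Nppc. In icKO samples the order was Nppa, Nppb, Furin, Corin, Npr2, Npr3, Npr1 and Nppc, with overlap of Corin with Npr2 and of Npr3 with Npr1. The tables were normalized separately, so levels are not tested between stages.

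Other cell types moved with the adult comparison. In bulk RNA, more or fewer cells of a type and more or less RNA per cell cannot be told apart. The 6 atrial markers summed to 2.05 to 2.39 RPKM in 4 weeks Ctrl and to 7.80 to 24.7 RPKM in icKO samples. Of these, Myl4 rose (1.39, 1.63 and 1.08 against 16.3, 7.87 and 6.31 RPKM). Myl7 was at 0.518, 0.389 and 0.505 against 7.30, 0.205 and 0.715 RPKM (1.11, limma adjusted p = 0.305). It reached the level for a test through icKO 1 alone and was not tested without that sample. Its call as higher without icKO 2 therefore depends on icKO 1. Sln and Bmp10 were at or under 0.223 RPKM in all 6 samples. The part of atrial cells in the adult Nppa value was not tested. The 7 fibroblast markers summed to 4.33 to 7.49 RPKM in Ctrl and to 52.2 to 73.5 RPKM in icKO samples, and the 6 mural markers to 6.17 to 15.9 against 20.1 to 38.3 RPKM. The 7 endothelial markers summed to 9.95 to 28.2 RPKM in Ctrl and to 25.9 to 49.2 RPKM in icKO samples, with overlap. Of these 7, 1 was called higher (Emcn), and 0 with median-ratio scaling. The part of fibroblasts, mural and endothelial cells in the Furin, Npr1 and Npr2 values was not tested. At E10.5 the sum of the 6 atrial markers was 1705 to 2185 RPKM in Ctrl and 1373 to 1904 in cKO hearts, with Sln at 0 throughout. Whether these genes mark atrial cells alone at E10.5 was not tested. The ventricular sum was 2878 to 4904 against 1770 to 2143, and Irx4 and Hey2 were called lower among 4 ventricular markers. The mural sum was 14.6 to 17.04 in Ctrl and 19.6 to 20.6 RPKM in cKO hearts, without overlap, and that of 8 erythroid markers 319 to 1075 against 488 to 2864, with overlap. The part of these cells in the embryonic Nppa, Npr2, Corin and Furin values was not tested.

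The genes around the locus moved in both directions at 4 weeks. The uncharacterised gene 2510039O18Rik was called higher, at 1.07 (limma adjusted p = 6.33e-06), and Plod1, a collagen lysine hydroxylase, was at 0.92. Mfn2, which encodes a mitochondrial fusion protein, went the other way, at -0.72 (adjusted p = 1.99e-05). Clcn6 was at 0.74 and Agtrap, which encodes a protein that binds the angiotensin receptor, at -0.24. With median-ratio scaling 2510039O18Rik was at 0.51, Clcn6 at 0.19, Agtrap at -0.80 and Mfn2 at -1.29. Draxin was at most at a mean of 0.0663 RPKM in any group. At E10.5 the adjusted p of these neighbours was 0.213 or higher.

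**Figure D4:**
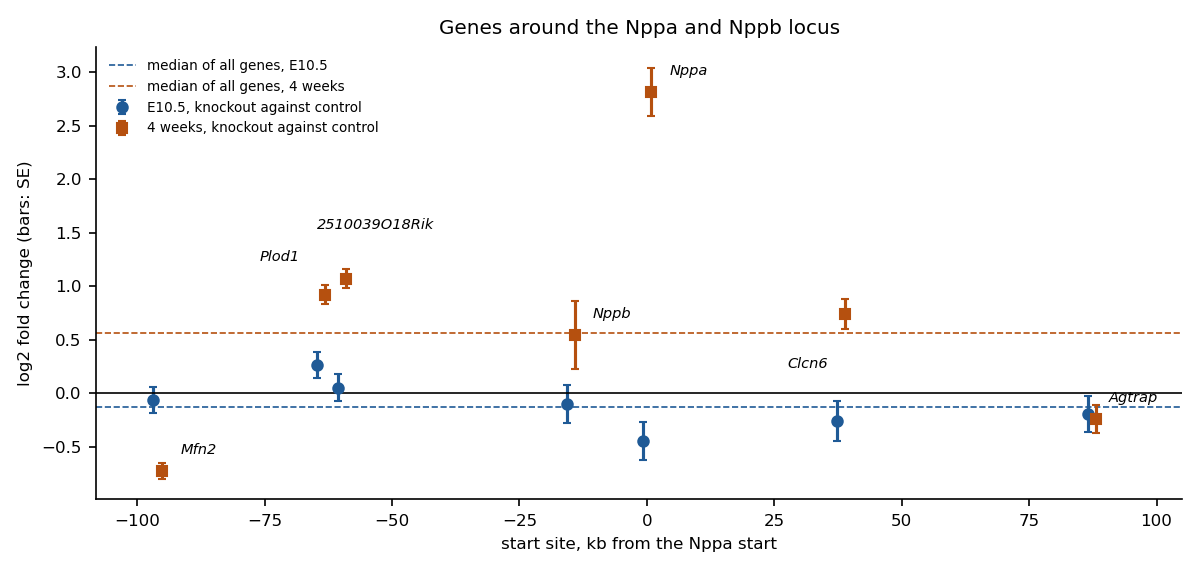
Log2 fold change with SE of the tested genes within 100 kb of Nppa or Nppb that are reported here, against the distance of their start from that of Nppa in kb. Circles are E10.5 and squares 4 weeks, and dashed lines are the median of all genes at each stage. Nppa at 4 weeks stands alone at 2.81, and Nppb, the nearest gene shown, lies on the median line.

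Downstream of the receptors, the cyclic GMP kinase gene Prkg1 rose in the adult knockout, from 2.836, 2.390 and 2.596 RPKM in the controls to 15.2, 13.7 and 16.4 RPKM in icKO samples (log2 difference 2.49, SE 0.11, limma adjusted p = 3.59e-07). Of 5 tested genes among the 8 kinases and substrates, 4 were called higher and 1 lower, with a median of 2.46 against 0.57 for all genes, and the same counts came with median-ratio scaling. Vasp, an actin regulator, was at 2.46. Mrvi1, a kinase substrate in smooth muscle, was at 0.139, 0.190 and 0.237 against 2.16, 1.74 and 1.78 RPKM, so it passed the filter through the icKO group alone and had to differ. Without any 1 icKO sample it was not tested, and 3 of 4 genes were called higher, with a median of 2.07 to 2.23. Rgs2, a brake on G protein signalling, fell from control levels of 11.4, 16.98 and 12.5 to 1.82, 2.38 and 2.35 RPKM, a difference of -2.58 (adjusted p = 1.72e-06). Prkg1 and Mrvi1 are also genes of smooth muscle and mural cells, whose markers rose too, and the part of those cells was not tested. At E10.5, 0 of 5 of these genes were called, with a median of 0.22 against -0.13 for all genes. Prkg1 was at 0.04 there (limma adjusted p = 0.898). With median-ratio scaling Mrvi1 was at 0.85 (adjusted p = 0.0399), the list gene Ppp1r12a at 0.43 (0.0266) and Vasp at 0.34 (0.0432). An adjusted p under 0.05 was reached by 5.05% of all genes there. Prkg1 at 0.16 and Rgs2 at 0.07 did not reach it, and 0 of 5 were called.

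Of 10 cyclic nucleotide phosphodiesterase genes, 3 were tested at 4 weeks and Pde1c was called lower, from 10.9, 10.2 and 9.42 RPKM to 1.55, 1.82 and 2.44 RPKM (-2.35, limma adjusted p = 2.18e-06). Pde3a was at -0.90 (adjusted p = 0.00190) and Pde2a at -0.65 (adjusted p = 0.168). With median-ratio scaling 3 of 3 were called lower, with Pde3a at -1.46 and Pde2a at -1.19 (adjusted p = 0.0334). Pde2a ranged from -0.999 without Ctrl 1 (adjusted p = 0.0334) to -0.19 without Ctrl 3. Pde5a and Pde9a, which break down cyclic GMP in the heart, stayed below 0.4 RPKM in every adult sample. The soluble cyclase genes Gucy1a1 and Gucy1b1, which answer nitric oxide, were at 1.001 RPKM or less there. Nos3, the endothelial nitric oxide synthase, was called higher at 1.31 (adjusted p = 0.00489), but at 0.80 (adjusted p = 0.0641) with median-ratio scaling. Its Ctrl values of 0.405, 0.566 and 0.859 RPKM were all below the filter level, so it was tested through the icKO values of 1.37, 1.23 and 2.39 RPKM, and it was not tested without icKO 3. The part of endothelial cells, whose marker sums are given above, in the Nos3 value was not tested.

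The breakdown enzyme neprilysin, encoded by Mme, was at 1.64, 1.08 and 1.54 RPKM in 4 weeks Ctrl and at 0.145, 0.313 and 0.175 RPKM in icKO samples, without overlap but under the level for a test. Of 2 tested breakdown genes 0 were called. Among 8 other proprotein convertases, 2 were tested and Pcsk7 was called higher, at 1.08 (limma adjusted p = 0.00117), and at 0.52 (adjusted p = 0.0556) with median-ratio scaling. Without Ctrl 3 it was at 0.86 and without icKO 3 at 0.98, short of a call. At E10.5 none of the 4 tested in each of these lists, or of the 6 phosphodiesterases, was called by limma. Those with an adjusted p under 0.05 were Pde3b at -0.86 (0.0236) and the breakdown gene Ide at -0.53 (0.0457). With median-ratio scaling Pde3b was at -0.75 (adjusted p = 0.0332) and Ide at -0.41 (adjusted p = 0.0917).

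Of the 18 factors known to act on Nppa and Nppb, 14 were tested at 4 weeks, 2 called higher and 2 lower, with a median of 0.18 against 0.57 for all genes. Tbx5, a T-box activator of Nppa, fell from 9.33, 8.81 and 6.36 to 2.67, 2.78 and 2.09 RPKM (-1.65, limma adjusted p = 2.37e-05). Klf15, which restrains growth of the myocardium, was at -1.001, at the limit for a call, and it fell short at -0.87 without Ctrl 1, -0.96 without Ctrl 2, -0.989 without icKO 1 and -0.986 without icKO 2. Tbx20 rose from 18.2, 20.02 and 27.6 to 63.5, 64.1 and 57.9 RPKM (1.51, adjusted p = 1.34e-05), and Srf was at 1.11. With median-ratio scaling Tbx20 at 0.95 and Srf at 0.55 were no longer called, and Tbx5 and Klf15 still were. At E10.5, 0 of 18 were called. Myocd was the sole one with an adjusted p under 0.05 there, at -0.57 (limma adjusted p = 0.0291). With median-ratio scaling it was at -0.44 (adjusted p = 0.0261).

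The list of genes known to change in the stressed or fetal myocardium holds some that rise in stress and some, such as Myh6, Atp2a2, Pln and Kcnip2, that are known to fall. Of its 12 genes, all tested at 4 weeks, 3 were called higher and 6 lower. Rcan1, a target of calcineurin signalling, was at 2.82 and Xirp2, a striated muscle repeat protein, at 1.25. With median-ratio scaling 1 (Rcan1) was called higher and 6 lower, and Xirp2 was at 0.69 and Slc2a1 at 0.66. The lower genes included Myh7, the fetal ventricular myosin heavy chain, at -2.12, and Kcnip2, a subunit of a potassium channel, at -7.95, with Pln, the inhibitor of the calcium pump, at -4.56. At E10.5 Acta1 was called higher, at 1.32 (limma adjusted p = 0.00409), and Myh7, Pln and Slc2a1 lower, at -1.47, -1.61 and -1.38. Myh7 no longer passed without Ctrl 3 (-1.39), cKO 1 (-1.42) or cKO 2 (-1.34), and Slc2a1 without Ctrl 3 (-1.40).

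**Figure D5:**
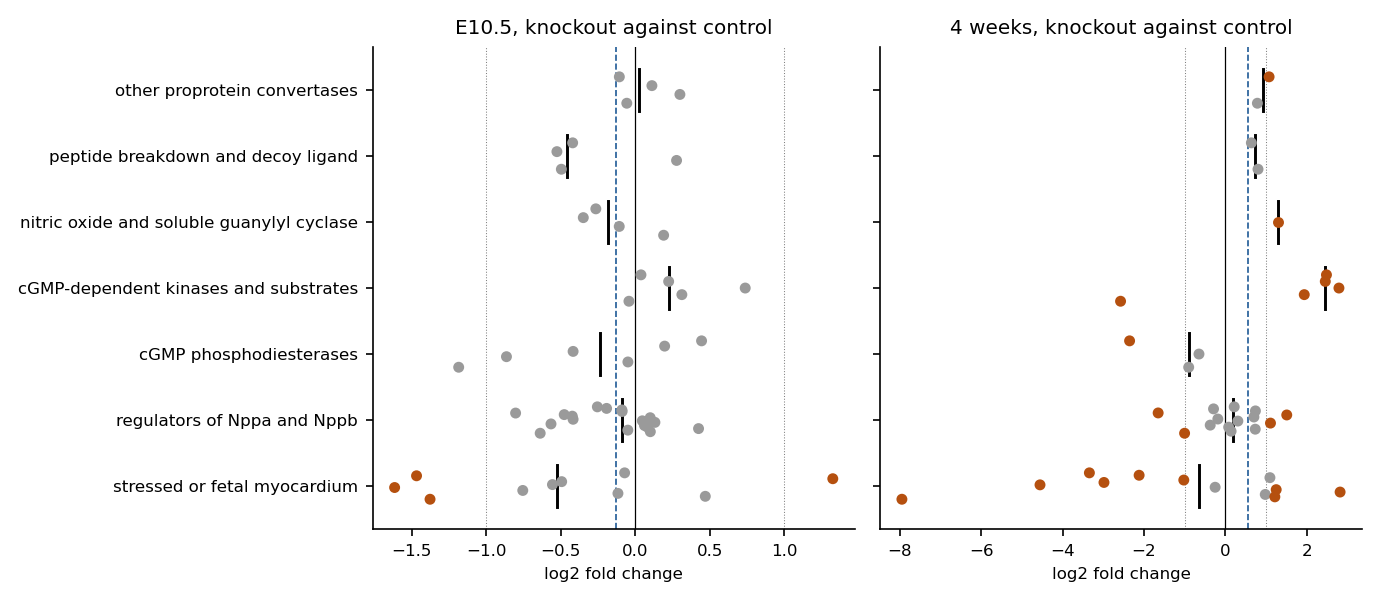
Log2 fold change of the tested genes of each list, knockout against control, at E10.5 and 4 weeks. Points are genes, coloured where called and grey where not, short bars are list medians, and the dashed line is the median of all genes. At 4 weeks 4 of 5 kinases and substrates lie at the right, and the phosphodiesterases lie below 0.

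The genes whose pattern over the 12 samples was most like that of a member were found by Pearson's r of log2(RPKM + 0.1) among 8909 genes, as a description, since the samples share 4 groups and any gene with the same group means scores high. For Nppa these were Ssu72 (r = 0.986), Tomm34, Fgfr3, Ctps and Lrrfip1. For Corin they were Slc4a3 (r = 0.991), Ifngr2, Hrc, Ank2 and Sesn1. Hrc, a calcium-binding protein of the sarcoplasmic reticulum, went from a mean of 332 RPKM in 4 weeks Ctrl to 89.9 RPKM in icKO samples. For Npr3, which was high in the embryo alone, they included Fndc3a (r = 0.996), Sgce, Tet3 and Ptprf, and for Nppb, with the lowest values, Lin37 (r = 0.938), Ehbp1, Plxna2, Jund and Bcam.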

How the data were processed

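RNA of 12 mouse samples was sequenced after ribosomal RNA removal. The deposited tables, 1 per stage, hold RPKM per gene that the authors made, per the labels with cutadapt 2.6, STAR 2.5.3a, HOMER 4.11.1 and build mm10 (GRCm38). Columns of the authors' own DESeq2 1.12.4 comparison (a log2 fold change, an FDR and a mean RPKM) were used nowhere. The E10.5 header writes icKO for cKO. RPKM are not counts, so log2(RPKM + 0.1) was fitted with limma 3.58.1 (R 4.3.3; lmFit, eBayes with trend) over genes with a mean RPKM above 1, each table alone, with Benjamini-Hochberg adjustment over all genes tested. Fold changes on this scale understate those of low genes. The fit was tested on simulated data. Calls required an adjusted p under 0.05 together with a log2 change beyond 1. The stage contrast used 1 fit of 12 samples. Reads were estimated from low RPKM, of which 66.9% to 74.1% were whole reads within 0.1 (20% by chance), and cover counting error only. Named were the members, Med30, neighbours within 100 kb, the 5 genes most alike, called list genes (up to 3 per direction) and direct cyclic GMP genes; some are not reported here; markers, Hrc beside Corin and all other list counts are descriptions. Members and lists were chosen with earlier results of these data known. Alternatives were other pseudocounts, filters and scalings, no trend, a replicate block and leaving out each sample.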

Additional observations from a re-analysis of the deposited data

Results flagged for a closer look

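The effect of the knockout differed between stages, by a test of the difference itself, for 3 of the 5 members tested at both, against 68.7% of all genes tested, a share near that of the members. Nppa differed by 3.26 on the log2 scale (4 weeks minus E10.5, limma adjusted p = 1.11e-06), being higher in 3 of 3 icKO and lower in 3 of 3 cKO samples than in any control of their stage. Corin differed by -2.58 (adjusted p = 2.06e-07), with the opposite directions in the same numbers of samples. Furin differed by 0.82 (adjusted p = 0.000510) and was higher in 3 of 3 knockout samples at both stages. With median-ratio scaling Furin was at 0.13 and did not pass, and Npr2 was at -0.73 (limma adjusted p = 0.00108). Stage cannot be told apart here from Cre driver, tissue preparation or time since deletion.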

How the results depend on the processing

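Depth limits Nppc at both stages and Npr1 at 4 weeks, and with 3 samples a group the exact tests cannot go below p = 0.1. Nppa, Corin and Furin at 4 weeks kept their direction and an adjusted p under 0.05 in limma under all 15 alternatives run for each, at 2.25 to 3.03, -2.62 to -1.93 and 0.54 to 1.22. Other members moved with the scaling.
With median-ratio scaling, quantile normalization and a scaling that left out the 20 most abundant genes, 3, 3 and 3 members had an adjusted p under 0.05 at E10.5 in place of 0, and 1, 1 and 1 were called higher at 4 weeks in place of 2. In that order, the E10.5 values were 0.64, 0.62 and 0.69 for Corin, 0.40, 0.41 and 0.45 for Furin, 0.73, 0.72 and 0.78 for Npr2, and 0.020, 0.098 and 0.073 for Nppb, which changed sign. With the first, Nppb at 4 weeks was at -0.019 and its stage difference at -0.040. Npr2 at 4 weeks was at -0.00036 and 0.010 with the first pair. Its stage difference was -0.73, -0.71 and -0.46, and 0.065 with a pseudocount of 1. That of Furin was 0.13 and 0.25 with the first pair.
Over all genes, the E10.5 count of 26 higher and 59 lower became 12 and 36 with a pseudocount of 1, 0 and 1 with no RPKM filter (0 and 1 at any size), 9 and 34 above a mean RPKM of 5, 35 and 39 with quantile normalization, 48 and 36 with the top 20 left out of the scaling, and 19 and 38 without the trend. The 4 weeks count of 2668 higher and 804 lower became 1687 and 454 above a mean RPKM of 5, 1053 and 1511 with median-ratio scaling, and 1206 and 1336 with quantile normalization.
Leaving out each sample gave 9 to 36 higher and 18 to 102 lower genes at E10.5, and 2493 to 2795 and 760 to 856 at 4 weeks. It gave -0.22 to 0.088 for Nppb and -0.13 to 0.16 for Npr3 at E10.5, -0.15 to 0.047 for the stage difference of Npr2, and -0.051 to 0.10 for Prkg1 at E10.5, all uncalled. Of the other values for named genes and lists, 647 kept their side, 13 lost the adjusted p under 0.05, 8 gained it and 23 list counts moved.
Samples that share a replicate number correlated at 0.01, 0.10 and -0.07 at E10.5 and at 0.15, 0.04 and 0.05 at 4 weeks, so the numbers were not taken to pair samples, and not every sample correlated best with its own number. With the replicate block, Nppb at 4 weeks was at 0.55 with an adjusted p of 0.01998 (0.145 without, 0.01998 to 0.961 over all alternatives), and 32 and 61 genes were called at E10.5. The causes were not tested.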
